A study of Mus musculus with 4 samples.

Results

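Effector and memory CD8 T cells were picked out of 4 single-cell RNA libraries of mouse lungs bearing small cell lung cancer by a rule on marker transcripts. A barcode counted as a cell with at least 500 unique molecular identifiers (UMIs, one per captured transcript), 300 or more genes and no more than 10% of its UMIs from mitochondrial genes. A cell was a member when it held at least 2 UMIs of Cd3d, Cd3e and Cd3g together, at least 2 of Cd8a and Cd8b1, no Cd4, at most 1 of Cd79a, at least 3 of Ccl5, Nkg7 and Gzmk together, and at most 1 of 7 NK receptor genes (Klra1, Klra6, Klra7, Klrc1, Klrc2, Klrb1c and Ncr1). The rule found 530 members among 14411 cells. Members were thus chosen by the measured UMIs of these genes, whose levels are given as description and were not tested.

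All mice had received small cell lung cancer cells by orthotopic injection into the lung, and tumours were followed by magnetic resonance imaging. One library came from each of 4 treatments: a control of vehicle plus isotype IgG, anti-PD-1 antibody (clone 29F.1A12, 200 µg per mouse on 3 days a week), the CDK7 inhibitor YKL-5-124 (10 mg per kg on each weekday), and a combination of both agents. Perfused whole lungs were digested with collagenase D and DNase I and sorted only for living, DAPI-negative cells, so that the members come from tumour and surrounding lung together. The labels name the material as mouse small cell lung cancer and give no strain, age, treatment length or number of animals per library. PD-1 is the inhibitory receptor encoded by Pdcd1, and CDK7 is a kinase of the cell cycle and of transcription initiation.

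The 4 libraries held 2736 to 4152 cells, with a median of 1939 to 2239 UMIs per cell and 17329001 to 22950622 UMIs in all. Members numbered 141 in the control, 110 with anti-PD-1, 103 under YKL-5-124 and 176 for the combination, with median depths of 2656, 2752.5, 2832 and 3420 UMIs. With 1 library per treatment there is no replicate and no test of a treatment; every interval given is an exact Poisson or binomial 95% interval that covers counting error only. Of the 14411 barcodes kept as cells, 658 were cells in more than 1 library, where 104.8 would be expected at random, and 14 members carried a barcode that was a cell in another library, against 7.7 expected. No barcode was a member in more than 1 library.

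CD8 T cells recognise peptide on MHC class I and kill through granules that hold perforin and granzymes. Naive and central memory cells express Ccr7, Lef1 and Tcf7 and circulate through lymph nodes, while effector cells lose this programme, express granzymes, Nkg7 and the chemokine Ccl5, and enter inflamed tissue. Repeated antigen contact raises inhibitory receptors such as PD-1, LAG-3 and CTLA-4, the first of which anti-PD-1 antibody blocks.

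The markers that give the population its name were unequally present in its members. Cd8b1 was found in 517 of the 530 members, Cd8a in 405 and Nkg7, a granule membrane protein, in 524. Ccl5 was found in 305 members and Gzmk, a granzyme of memory and early effector cells, in 60. The threshold was reached by Nkg7 alone in 223 members and by Ccl5 alone in 4, and 56 members held all 3 genes. Ccl5 was concentrated in few cells: the 170 members with at least 10 Ccl5 UMIs held 96.2% of all Ccl5 UMIs of the population. Members therefore fell into 234 cells with at least 3 Ccl5 UMIs, 71 with 1 or 2, and 225 with none. B cells, which lack these genes, held a Ccl5 UMI in 5.54% to 7.95% of cells across libraries and an Nkg7 UMI in 0.792% to 3.30%, and the 71 members with 1 or 2 Ccl5 UMIs are not told apart from such free RNA. At the threshold, 80 members held exactly 3 UMIs of the 3 genes and 123 CD8 T cells just outside it held 2. Since many members carry Nkg7 without Ccl5 or Gzmk, the population is called Nkg7/Ccl5 CD8 T cells here.

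Gate transcripts also differed in level between libraries. Ccl5 stood at 6522 CPM (UMIs scaled to 1000000 per library's members) in the control, 11781 with anti-PD-1, 4193 under YKL-5-124 and 3837 for the combination. Nkg7 was nearer to even, at 1881, 2839, 1934 and 2003 CPM. Gzmk was at 44.4, 166, 38.7 and 59.4 CPM and was found in 11, 22, 8 and 19 members, which is 7.80%, 20%, 7.77% and 10.8% of them. All 3 were highest in the anti-PD-1 library.

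Nkg7/Ccl5 CD8 T cells made up 4.05% of all cells in the control (95% interval 3.42 to 4.76), 4.02% with anti-PD-1 (3.32 to 4.83), 2.48% with YKL-5-124 (2.03 to 3.0) and 4.35% in the combination (3.75 to 5.03). The YKL-5-124 share was 0.612 times the control share (interval 0.470 to 0.795), and the interval of the YKL-5-124 library lies below those of the other libraries. The whole CD8 gate was also smaller there, at 5.76% of cells against 8.19% in the control, a ratio of 0.703 (0.590 to 0.838). Within the CD8 gate the members held 49.5%, 48.7%, 43.1% and 50.3% of cells in the same order, and the YKL-5-124 ratio of 0.871 has an interval of 0.669 to 1.13. Of all cells with at least 2 Cd3 UMIs, members were 14.8%, 16.8%, 12.5% and 14.5%, with a YKL-5-124 ratio of 0.845 (0.649 to 1.10). Such cells numbered 953 of 3481 in the control and 824 of 4152 under YKL-5-124, so the lower share was not particular to the members. Members with at least 3 Ccl5 UMIs were 44.0% of the members in the control, 47.3% with anti-PD-1, 43.7% under YKL-5-124 and 42.6% for the combination. The number of cells in a digest depends on dissociation and sorting, whose part in these shares was not tested.

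**Figure D1:**
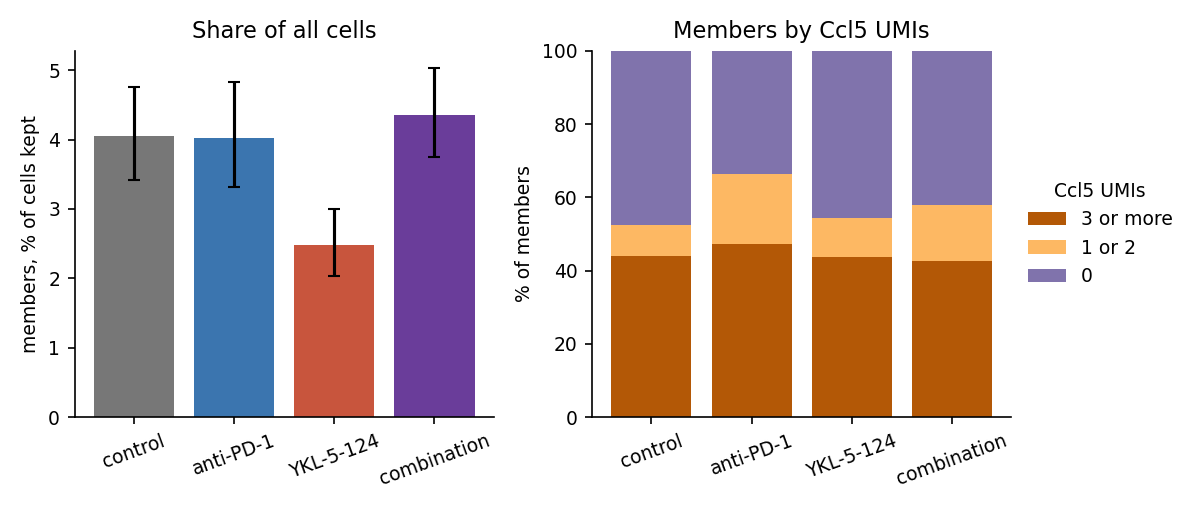
Left, members as a percentage of all cells kept in each library, with exact binomial 95% intervals over cells; right, the members of each library split by Ccl5 UMIs, in percent. The YKL-5-124 bar is the lowest (2.48%), and anti-PD-1 has the smallest part without Ccl5 (33.6%). Anti-PD-1 also has the largest part with 1 or 2 Ccl5 UMIs (19.1%), which are not told apart from free RNA.

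Within the population, members with at least 3 Ccl5 UMIs and members with none carried different programmes. This split was made after the values had been seen, and was tested over the 4 libraries with edgeR's quasi-likelihood test with library as a block and Benjamini-Hochberg adjustment, leaving out the genes of the rule. Of 2409 genes tested, 19 were higher (0.789%) and 9 lower (0.374%) in the Ccl5 carriers. Gzma, which encodes granzyme A, averaged 961 ± 290 CPM in Ccl5 carriers and 16.6 ± 10.7 CPM in members without Ccl5 (SD, n = 4 libraries), a log2 difference of 5.88 (SE 0.28, edgeR adjusted p = 4.54e-09). Gzmb, granzyme B, averaged 340 against 22.9 CPM, with a log2 difference of 3.31 (SE 0.58, adjusted p = 0.00751). Ccl4, an inflammatory chemokine, differed by 3.48 (SE 0.32, adjusted p = 2.54e-05), and Klrk1 (NKG2D) by 3.14. Fasl, the death ligand, was higher by 2.72 on the log2 scale, the protease inhibitors Ctla2a and Serpinb9 by 2.55 and 1.76, and Ly6c2 by 1.27 with 808 against 331 CPM. Among the lists, 4 of 9 cytotoxic granule genes tested were higher and none lower. H2-Eb1 and Cst3, genes of antigen-presenting cells, were also among the higher genes, by 1.77 and 1.46 on the log2 scale. Without the members that carry RNA of another lineage (described below), Cst3 differed by −0.27 (edgeR adjusted p = 0.763) and H2-Eb1 fell under the filter on low counts. H2-Eb1 is among the genes that defined those members, so its fall follows in part from that choice.

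Members without Ccl5 were higher in genes of the naive and central memory programme. Of the 15 genes of that list tested, 5 were lower in Ccl5 carriers and none higher. Ccr7, the lymph node homing receptor, averaged 469 CPM in Ccl5 carriers and 1005 CPM in members without Ccl5 (log2 difference −1.15, edgeR adjusted p = 0.00709). Dapl1, a transcript of naive and early memory CD8 T cells, stood at 179 against 584 CPM (−1.77, adjusted p = 4.44e-05), and Lef1 differed by −0.91. S100a6, Pdcd1 and Lag3 did not pass, with log2 differences of 0.81, 0.10 and 0.25 and adjusted p of 0.744, 0.996 and 0.899. Median depth was 2536 to 2947.5 UMIs per member without Ccl5 and 2657 to 3729 per Ccl5 carrier, and the members with 1 or 2 Ccl5 UMIs entered neither side.

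**Figure D2:**
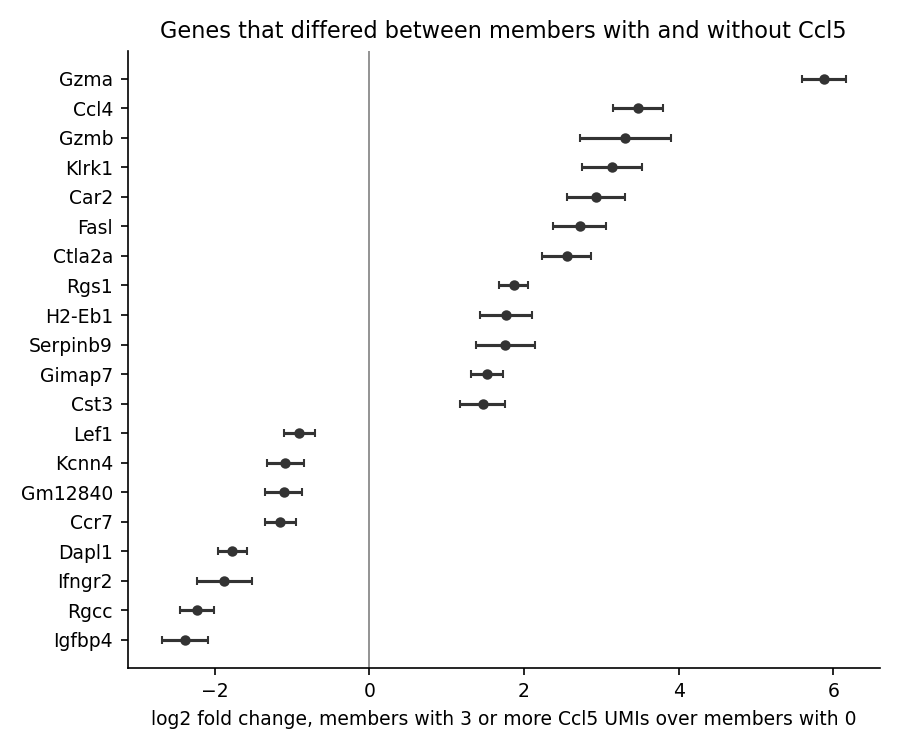
Log2 fold change (x axis, points with bars of ± SE) between members with at least 3 Ccl5 UMIs and members with none, for 20 genes past an edgeR adjusted p of 0.05 over 4 libraries. Gzma, Ccl4, Gzmb, Klrk1 and Fasl lie far to the right, and Igfbp4, Rgcc, Dapl1 and Ccr7 to the left.

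Members without Ccl5 were then set against CD8 T cells with no UMI of Ccl5, Nkg7 or Gzmk, of which the 4 libraries held 136, in a comparison also added after seeing the data. Of 1497 genes, 5 (0.334%) were higher and 10 (0.668%) lower in the members without Ccl5. Il7r, the interleukin-7 receptor, was lower by 0.77 on the log2 scale (edgeR adjusted p = 0.0329) and Selenop by 1.48 (adjusted p = 0.00825), while Cd52, Actb and Pfn1 were higher by 0.69, 0.55 and 0.54. No gene was called in either direction when the anti-PD-1 library or the YKL-5-124 library was left out. A gene that misses the threshold is not thereby shown to be equal in both. The 136 cells were shallower, at a median of 1794 to 2237 UMIs per cell against 2536 to 2947.5. The part of depth was not tested.

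Taken as a whole, the 530 members were compared with the same 136 CD8 T cells. Because the difference in Ccl5, Nkg7 and Gzmk was set by the rule, those genes were left out. Members were deeper, at a median of 2656 to 3420 UMIs per cell against 1794 to 2237, and the part of depth was not tested. Of 2771 genes, 28 were higher (1.01%) and 33 lower (1.19%) in members. Gzma averaged 449 ± 165 CPM in members and 9.82 ± 13.1 CPM in the other cells (n = 4 libraries; log2 difference 5.23, SE 0.37, edgeR adjusted p = 1.70e-07). Ly6c2, a surface protein of effector and memory CD8 T cells, averaged 564 against 163 CPM (1.73, SE 0.18, adjusted p = 2.43e-05). Gzmb was higher by 2.19, Fasl by 2.81, Klrk1 by 2.22, the integrin chain gene Itgb1 by 1.06 and the interleukin-2 receptor gene Il2rb by 1.03. Cytotoxic granule genes were higher for 5 of 8 tested, terminal effector genes for 3 of 9 and memory genes for 2 of 9 (Ly6c2 and Il2rb). Ccr7 was lower by 0.93 (777 against 1405 CPM, adjusted p = 0.000394) and was 1 of 4 genes that were lower among 15 naive genes tested, with Lef1 and Il7r also among them. The inhibitory receptor genes did not pass: Lag3 differed by 2.12 (adjusted p = 0.126) and Pdcd1 by 1.01 (adjusted p = 0.312).

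Calls against the 136 cells were fewer in most cases when a library was left out: 9 to 39 were higher and 10 to 35 lower over the 4 omissions, and the counts were lower without the combination library (9 higher, 11 lower), without anti-PD-1 (13 and 10) and without YKL-5-124 (14 and 12). Gzma, Ly6c2, AW112010, Selenop, Arhgap31 and Tsc22d3 stayed past the threshold in every alternative run.

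The members were also set against 132 CD8 T cells that passed the same gates except that they carried at least 2 UMIs of the NK receptor genes. Of 3384 genes, 35 (1.03%) were higher and 54 (1.6%) lower in the members. Gzma averaged 449 CPM in the members and 3356 CPM in the NK receptor carriers (log2 difference −2.59, edgeR adjusted p = 0.000158), Gzmb differed by −2.23, Prf1, perforin, by −1.97 and Klrk1 by −1.77. Of 27 G2/M genes tested, 20 were lower in the members, among them Ccnb1 by −2.92, Ube2c by −2.84, Cdc20 by −2.44 and Mki67 by −1.07. Naive genes were higher in the members for 4 of 15, including Ccr7 by 1.23, Tcf7 by 1.04 and Dapl1 by 1.72. The MHC class II genes H2-Aa and H2-Eb1 were higher by 3.01 and 2.88, and fell under the filter on low counts without the members that carry RNA of another lineage. These genes helped to define such members, and the NK receptor carriers were not filtered in the same way. That run therefore cannot decide the difference in these genes. Lag3 (−1.76, adjusted p = 0.0809) and Pdcd1 (−1.10, adjusted p = 0.173) did not pass. The NK receptor carriers were deeper, at a median of 3245 to 4260.5 UMIs per cell against 2656 to 3420. Without the YKL-5-124 library the counts were 13 higher and 18 lower, without the combination library 18 and 29, and without anti-PD-1 there were 69 higher.

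NK cells share the cytotoxic programme without a T cell receptor, and 1057 of them were compared with the members. Of 5280 genes, 689 (13%) were higher and 679 (12.9%) lower in the members. The NK cells were shallower, at a median of 1619 to 1834.5 UMIs per cell against 2656 to 3420, and the part of depth was not tested. Gzma averaged 449 CPM against 17076 CPM in NK cells, and log2 differences of −4.61 for Prf1, −3.56 for Gzmb and −2.95 for Ifng (interferon gamma) put the granule and effector genes below NK cells. The transcription factor genes Eomes and Tbx21 differed by −3.07 and −2.38 and Klrg1, a receptor of terminal effectors, by −3.77. Above NK cells lay Ccr7 (5.57), Il7r (4.50), the residency chemokine receptor gene Cxcr6 (4.66), Pdcd1 (5.37) and Lag3 (3.33), all log2 differences past an edgeR adjusted p of 0.05. By list, 8 of 10 cytotoxic granule genes and 11 of 15 terminal effector genes were lower in the members, and 11 of 15 naive genes and 16 of 22 interferon-stimulated genes were higher.

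A set of 48 members carried RNA of another lineage. The definition was at least 5 UMIs of another cell type's marker list or at least 20 UMIs of MHC class II genes. For it, Fcer1g, Tyrobp, Cd14 and Ifitm3 were added to the 7 genes of the monocyte and macrophage list. These lists and minimums were chosen after the values had been seen. The 48 members numbered 8 in the control, 2 with anti-PD-1, 12 under YKL-5-124 and 26 for the combination. Monocyte and macrophage RNA was found in 35 of them, MHC class II RNA in 24, B cell RNA in 11, tumour RNA in 6 and epithelial RNA in 6. Their median depth was 7364.5 UMIs, against 2779 in the 482 others, and 15 were marked as doublets. The summed monocyte and macrophage list stood at 703 CPM in control members, 37.8 with anti-PD-1, 1781 under YKL-5-124 and 2281 for the combination, with 4, 4, 6 and 7 of its 7 genes found. Values without these 48 members are therefore given wherever they move a result.

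Between libraries, 2451 genes had a mean of at least 50 CPM over the 4 libraries, and a gene was called by size alone, at 1.5-fold on the log2(CPM + 20) scale. Against the control, anti-PD-1 had 104 genes higher (4.24%) and 100 lower (4.08%), YKL-5-124 219 higher (8.94%) and 45 lower (1.84%), and the combination 182 higher (7.43%) and 43 lower (1.75%). These shares are the background for each list below, and the 3 comparisons share the control. The median log2 ratio of all genes was 0.01, 0.10 and 0.08.

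Several cytoskeletal, calcium-binding and adhesion genes of the terminal effector list stood highest in both libraries that had received YKL-5-124. S100a6, a calcium-binding protein of activated cells, was at 271 CPM in the control, 520 with anti-PD-1, 1064 under YKL-5-124 and 1443 for the combination. The ratios to control were 1.92 (1.52 to 2.43), 3.93 (3.21 to 4.83) and 5.33 (4.43 to 6.45), so each treated library lay above the control and the YKL-5-124 and combination libraries above anti-PD-1. The UMIs came from 39, 36, 46 and 90 members. S100a4, its relative, was at 57.1, 69.7, 186 and 426 CPM, with a combination ratio of 7.46 (5.03 to 11.5). Lgals1, the lectin galectin-1, was at 768, 767, 2285 and 2018 CPM, and Itgb1 at 180, 232, 390 and 518 CPM. In both genes the libraries with YKL-5-124 were the high ones. Vim, the filament protein vimentin, was at 218, 227, 844 and 676 CPM. Of 9 list members tested, 7 were higher with YKL-5-124 (median log2 ratio 1.04), 6 in the combination (1.37) and 1, S100a6, with anti-PD-1 (0.15), with none lower in any of the 3. Id2, a regulator of effector cells and the only transcription regulator of the list above the filter, did not share this order. It was at 294, 415, 266 and 346 CPM, highest with anti-PD-1. Klrg1, Cx3cr1, Zeb2, Tbx21 and Prdm1 were below the filter, with 1 to 15 UMIs in a library, too few to order the libraries.

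Macrophages also express Vim, Lgals3 and Anxa2, and these 3 genes moved with the members that carry other-lineage RNA. Without the 48 members Vim stood at 190, 233, 610 and 520 CPM in the same order, Lgals3 at 27.5, 75.5, 213 and 307 against 74.1, 98.8, 480 and 488 with them, and Anxa2 at 94.9, 142, 422 and 287 against 133, 148, 506 and 355. S100a6 was little moved, at 272, 538, 922 and 1540 CPM, as were Lgals1 at 836, 788, 2037 and 2211 and Itgb1 at 190, 242, 429 and 583. Fcer1g, an Fc receptor chain of myeloid and NK cells, was among the largest ratios with YKL-5-124, at 91.0, 17.4, 374 and 413 CPM, and stood at 0, 12.1, 27.4 and 20.7 CPM without the 48. Cd14, a monocyte receptor and the fourth largest in the combination, went from 159 to 3.77 CPM there. Fcer1g and Cd14 are among the genes that defined the 48, so both falls follow in part from that choice. Ifitm1, an interferon-induced membrane protein, kept 354 of 384 CPM in the combination and was at 0 in the control without the 48 members.

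**Figure D3:**
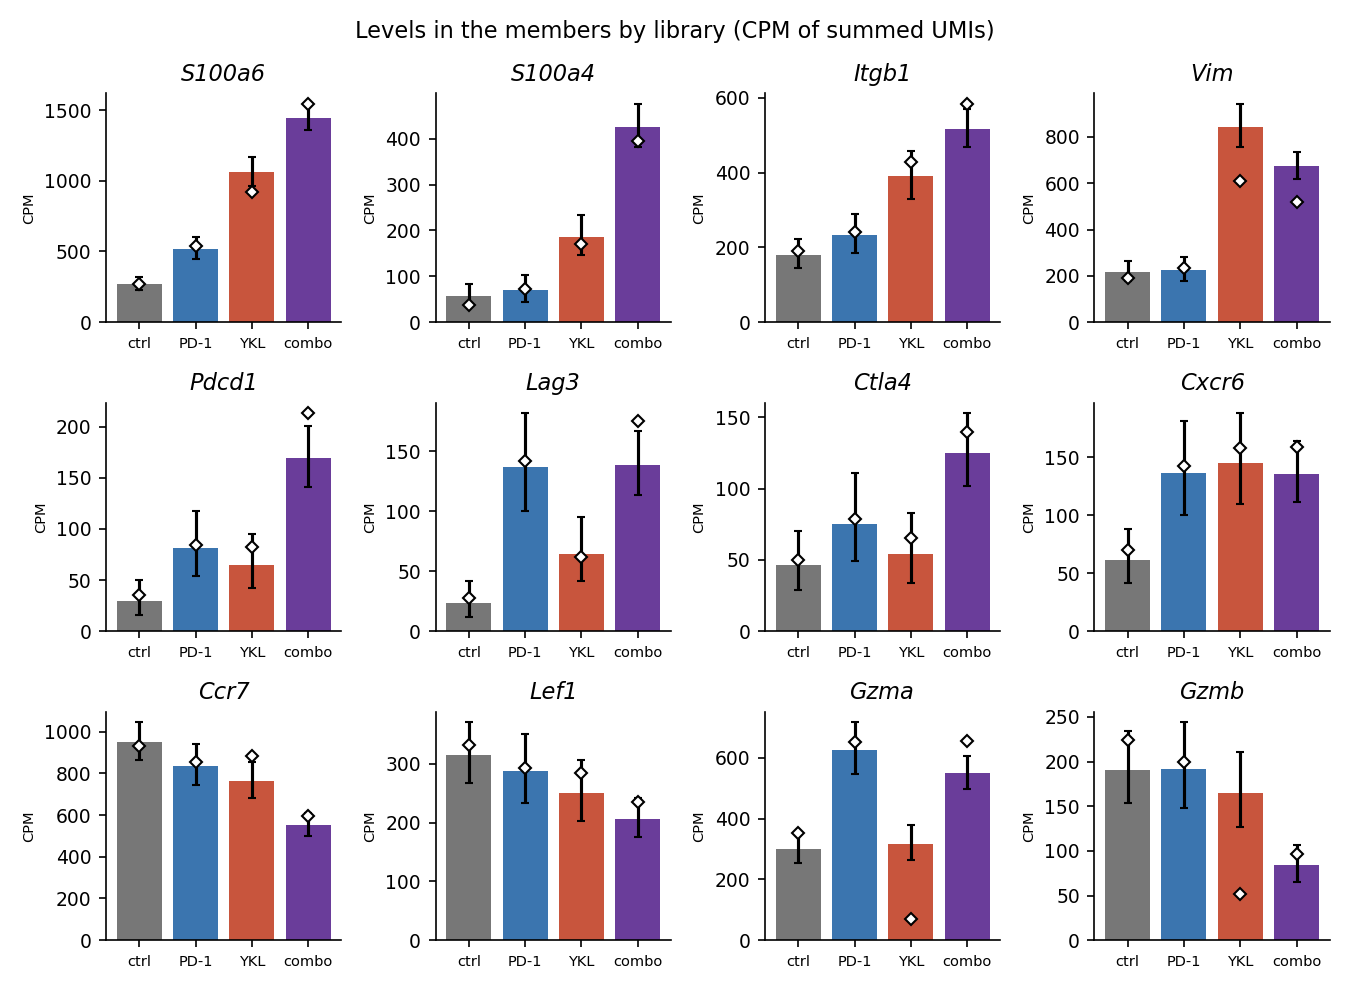
Levels of named genes in Nkg7/Ccl5 CD8 T cells of each library, in CPM; bars are levels with exact Poisson 95% intervals and white diamonds the level without the 48 members that carry RNA of another lineage. S100a6 goes from 271 CPM in the control to 1443 in the combination with little change between bar and diamond, while the YKL-5-124 diamond for Gzma lies far below its bar.

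Pdcd1 and Lag3 stood higher in the treated libraries than in the control, from few cells. Pdcd1, the gene of the receptor that the antibody blocks, was at 29.6 CPM in the control, 81.4 with anti-PD-1, 64.5 under YKL-5-124 and 169 for the combination, from 14, 28, 25 and 131 UMIs in 7, 16, 11 and 49 members. Its ratios to control were 2.75 (1.40 to 5.64), 2.18 (1.09 to 4.53) and 5.71 (3.29 to 10.7). The combination also stood above anti-PD-1 alone, with a ratio of 2.08 (1.37 to 3.25). Lag3 was at 23.3, 137, 64.5 and 138 CPM, with ratios of 5.87 (3.0 to 12.5), 2.77 (1.32 to 6.24) and 5.94 (3.19 to 12.3). By CPM anti-PD-1 and the combination were nearly level and YKL-5-124 lay between. Its UMIs came from 8, 19, 8 and 44 members, as few under YKL-5-124 as in the control. In 3 cells lay 54.5% of Lag3 UMIs in the control and 64% under YKL-5-124, and for Pdcd1 71.4% and 64%. The intervals count UMIs and do not cover this concentration in few cells. Both genes were found together in 3, 10, 3 and 31 members. Ctla4 was at 46.6, 75.5, 54.2 and 125 CPM, and only the combination interval lay above 1 against the control, at 2.69 (1.68 to 4.49). Tox, a transcription factor of chronically stimulated T cells, was highest with anti-PD-1, at 90.1 CPM against 42.3 in the control.

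By list, 4 of 8 inhibitory receptor genes tested were higher with anti-PD-1 (Lag3, Pdcd1, Tox and Nr4a2; median log2 ratio 0.58), 2 with YKL-5-124 (0.25) and 3 in the combination (0.24), and none was lower against the control. Havcr2 (TIM-3) had 5, 4, 4 and 12 UMIs and Tigit 3, 0, 0 and 2, too few to compare. When each member was thinned to 1000 UMIs, a Pdcd1 UMI remained in 2.8%, 6.5%, 5.8% and 13.7% of members and in no B cell, and at least 2 UMIs of the summed list in 24.8%, 37.0%, 29.1% and 32.0%, beside 13.0% to 21.1% of B cells. In the YKL-5-124 library the direction turned with the members counted: against the control, the Pdcd1 log2 ratio was −0.33 without the members high in G2/M genes and −1.15 among Ccl5 carriers alone, and Lag3 was −0.50 without the members high in G2/M genes.

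Several G2/M genes stood lowest with anti-PD-1 and highest with YKL-5-124 or in the combination. Mki67, a marker of dividing cells, was at 33.9 CPM in the control, 8.72 with anti-PD-1, 101 under YKL-5-124 and 105 for the combination, from 6, 3, 10 and 18 members. The intervals of the ratios to control were 0.0481 to 0.899, 1.62 to 5.70 and 1.79 to 5.66. Hmgb2, a chromatin protein of dividing cells, was at 624, 375, 1255 and 948 CPM, and Stmn1, which binds tubulin, at 521, 166, 638 and 685 CPM. Both were lowest with anti-PD-1. Of 13 G2/M genes tested, 6 were lower and none higher with anti-PD-1 (median log2 ratio −0.51), 9 were higher with YKL-5-124 (0.77) and 4 in the combination (0.55). Of 13 G1/S genes, 1 was higher and 1 lower with anti-PD-1, 9 were higher with YKL-5-124 (0.61) and 3 in the combination (0.37). Part of the control level came from members with other-lineage RNA: without the 48, Stmn1 stood at 265, 163, 490 and 324 CPM, Top2a at 64.9, 57.4, 154 and 96.1 against 144, 55.2, 188 and 138 with them, and Mki67 at 20, 6.04, 110 and 64.1.

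In cells thinned to 1000 UMIs, at least 3 G2/M UMIs were found in 27.0% of control members, 28.7% with anti-PD-1, 38.8% under YKL-5-124 and 36.0% for the combination, and in 17.1% to 22.9% of B cells. By this share control and anti-PD-1 were the low libraries, with the control lowest. Before thinning the shares were 81.6%, 81.8%, 83.5% and 89.2%. This cut is a range and not a cell type, as 72 members sit at it and 125 just below.

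Genes of the naive and central memory programme were lowest in the combination. Ccr7 was at 952 CPM in the control, 837 with anti-PD-1, 764 under YKL-5-124 and 553 for the combination, a combination ratio of 0.581 (0.507 to 0.664). Lef1, which with Tcf7 maintains the naive state, was at 315, 288, 250 and 207 CPM, and Il7r at 535, 485, 542 and 372 CPM. S1pr1, the receptor for exit from lymphoid tissue, was lower in all 3 treated libraries, at 139, 147 and 174 CPM against 254, and lowest with anti-PD-1. Few passed the 1.5-fold size: of 15 tested, 2 were lower with anti-PD-1 (S1pr1 and Igfbp4; median −0.12), 1 with YKL-5-124 (S1pr1; −0.09) and 2 in the combination (Ccr7 and Txk; −0.42), with none higher.

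Among memory and residency genes, Cxcr6, a receptor that retains T cells in lung tissue, was at 61.4, 137, 145 and 136 CPM, with ratios to control of 2.23 (1.37 to 3.67), 2.36 (1.48 to 3.83) and 2.21 (1.45 to 3.46). It was thus above the control and at a similar level in the 3 treated libraries. Cxcr3, a receptor for interferon-induced chemokines, was at 86.8, 69.7, 139 and 163 CPM. Of 10 memory genes tested, none was called with anti-PD-1, 2 were higher with YKL-5-124 (Il2rb and Cd44) and 1 in the combination (Cxcr3). T cell receptor signalling genes were higher for 4 of 14 with anti-PD-1, Fyn, Cd6, Lcp2 and Zap70, for none with YKL-5-124 and for 1, Fyn, in the combination.

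Granule and chemokine UMIs were concentrated in few members. Gzma was at 300.5 CPM in the control, 628 with anti-PD-1, 318 under YKL-5-124 and 550 for the combination, found in 20, 20, 9 and 26 members, and the top member held 43, 55, 99 and 239 UMIs. Without the 48 members with other-lineage RNA, YKL-5-124 was at 68.6 CPM and the others at 352, 652 and 656. Gzmb was at 190, 192, 165 and 84.0 CPM, and at 225, 199, 51.4 and 96.2 without the 48. Both libraries with YKL-5-124 lay below control and anti-PD-1 either way. Without the 48 the direction between combination and YKL-5-124 alone turned, from lower to higher. Of 9 cytotoxic granule genes tested, 1 was higher and 1 lower with anti-PD-1, none higher and 1 lower with YKL-5-124, and 2 higher and 1 lower in the combination.

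Ccl4 was at 61.4, 264, 137 and 397 CPM, but 1 combination member held 210 of its 307 UMIs there, and without the 48 members the levels were 52.4, 275, 96.0 and 79.2. The combination was thus highest in all members and anti-PD-1 without the 48. In all members anti-PD-1 stood at 4.31 times the control (2.81 to 6.79). Ccl3, a related chemokine, had 1, 13, 3 and 129 UMIs, 117 of them in 1 cell. Xcl1, which attracts cross-presenting dendritic cells, was at 273, 569, 38.7 and 89.1 CPM, low in both libraries with YKL-5-124. It was found in 10, 19, 6 and 20 members, up to 103 UMIs in 1, and the ratio turned among Ccl5 carriers alone, to log2 1.17 for YKL-5-124 and 1.24 for the combination.

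Other genes named by size were fewer and less grouped. With anti-PD-1, Bhlhe40, a transcription factor of activated T cells, was at 128 CPM against 50.8 in the control, Eif3f, a translation initiation subunit, at 250 against 106 and the iron-sulphur scaffold gene Iscu at 110 against 42.3. Fos, an immediate early gene, was lower at 142 against 385 CPM, and stood at 139 against 275 without the 48 members. Cd9 was lower with anti-PD-1 at 58.1 against 190 CPM, and Mt1, a metallothionein, was lower with YKL-5-124 at 25.8 against 127 CPM. Without the 48 members those became 48.3 against 62.4 CPM for Cd9 and 13.7 against 17.5 CPM for Mt1. In the combination Jun was at 181 against 343 CPM, Tespa1, a T cell signalling gene, at 65.9 against 137 CPM and the interferon gamma receptor gene Ifngr2 at 60.7 against 119 CPM. Of 17 interferon-stimulated genes none was called with either agent alone and 1, Ifi27l2a, was higher in the combination (736 against 320 CPM). None of 8 heat shock genes was called in any of the 3 comparisons. Cdk7, which encodes the kinase the inhibitor targets, had 3, 7, 3 and 9 UMIs in the members, too few to compare.

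The design holds pairs of comparisons that share no library, so that each agent can be read against 2 separate backgrounds. Combination against anti-PD-1 had 197 genes higher (8.04%) and 42 lower (1.71%), and combination against YKL-5-124 77 higher (3.14%) and 56 lower (2.28%). For the addition of YKL-5-124, 62 genes were higher both over the control and over anti-PD-1, which is 28.3% of the 219 and 31.5% of the 197, and 7 were lower in both, 15.6% of 45 and 16.7% of 42. Opposite calls were made for 1 and 7 genes. The 62 held 6 of the terminal effector list (Vim, S100a6, S100a4, Lgals1, Itgb1 and Ahnak), 9 G2/M genes, 4 G1/S genes (Rrm2, Tyms, Pcna and Rrm1) and Pdcd1, beside monocyte and macrophage genes such as Cd14, Fcer1g and Lyz2. Without the 48 members with other-lineage RNA, 35 of the 62 were still past 1.5-fold in both comparisons. Cd14 and Fcer1g were then no longer among them, nor were Ahnak, H2afx, Tubb4b and Pcna, while Lyz2, Vim, S100a6, S100a4, Lgals1, Itgb1, Mki67 and Pdcd1 were. Cd14, Fcer1g and Lyz2 are among the genes that defined the 48. For the addition of anti-PD-1, 11 genes were higher both over the control and over YKL-5-124, 10.6% of 104 and 14.3% of 77, and 6 were lower in both. The 11 were Ccl4, Ccl3, Pdcd1, Eif3f, Bhlhe40, Lag3, Xcl1, Fyn, Gzma, Iscu and AW112010, and 3 and 13 genes were called in opposite directions. Without the 48 members 9 of the 11 were still past 1.5-fold in both, all but Ccl4 and Ccl3. Pdcd1 was thus the 1 gene higher in all 4 of these comparisons.

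**Figure D4:**
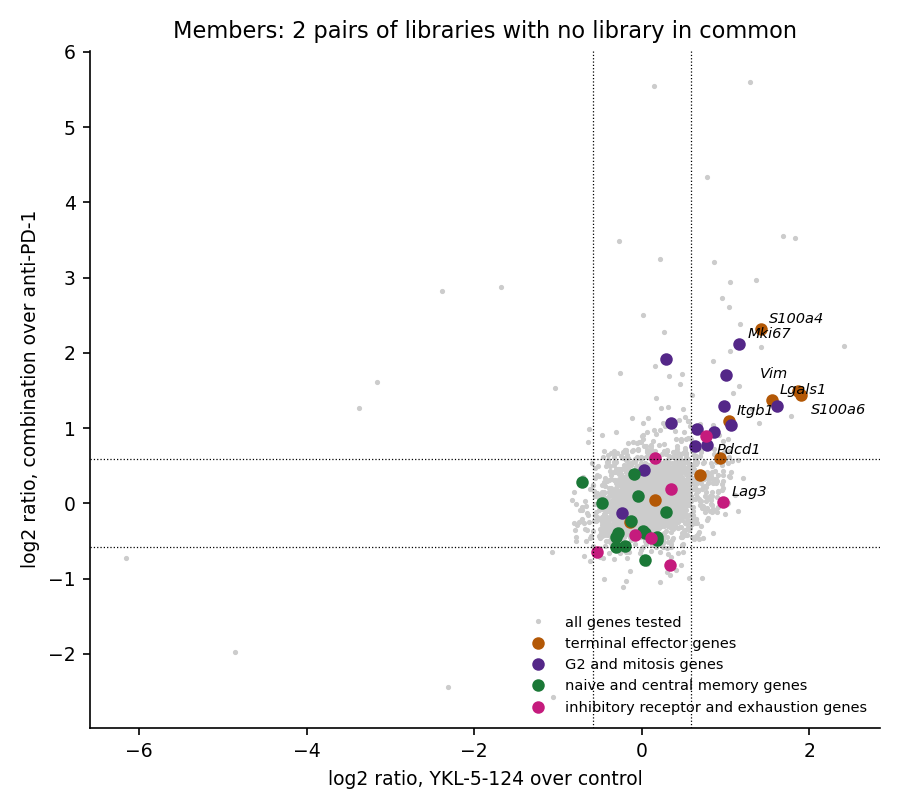
Log2 ratio of YKL-5-124 over control (x axis) and of combination over anti-PD-1 (y axis), 2 comparisons that share no library, on the log2(CPM + 20) scale. Each point is a gene with a mean of at least 50 CPM, coloured by list, and dotted lines mark 1.5-fold; S100a6, S100a4, Lgals1, Vim and Mki67 lie past it in both, and Lag3 on the x axis only.

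S100a6, Itgb1 and Lgals1 were unevenly placed within the population, and the split by Ccl5 showed in which members. In the 207 members without Ccl5 and without other-lineage RNA, S100a6 was at 32.9 CPM in the control, 161 with anti-PD-1, 1458 under YKL-5-124 and 1412 for the combination. Itgb1 followed the same order at 38.4, 121, 569 and 753 CPM, and Lgals1 was at 351, 395, 3339 and 2557 CPM. Control and anti-PD-1 were low and both libraries with YKL-5-124 high. In Ccl5 carriers without other-lineage RNA, S100a6 was at 544, 1007, 406 and 1840 CPM, so there the YKL-5-124 library was the lowest and the combination the highest. Itgb1 was at 333, 386, 317 and 511 CPM in these cells. Pdcd1 in members without Ccl5 had 1, 3, 20 and 54 UMIs and in Ccl5 carriers 13, 24, 3 and 49. Mki67 had 0, 0, 31 and 20 UMIs in members without Ccl5 and 7, 2, 1 and 14 in Ccl5 carriers.

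These UMIs came from a small set of cells. At least 3 S100a6 UMIs were found in 0 of 62 control members without Ccl5, which allows a share of up to 4.84%, in 2 of 37 with anti-PD-1 (5.41%), in 12 of 42 with YKL-5-124 (28.6%, 95% interval 15.7 to 44.6) and in 20 of 66 in the combination (30.3%, 19.6 to 42.9). With the members that carry other-lineage RNA included, the counts were 1 of 67, 2 of 37, 17 of 47 and 26 of 74. After thinning to 1000 UMIs, an S100a6 UMI was left in 1 of 62, 1 of 36, 11 of 42 and 16 of 65 such cells, or 1.61%, 2.78%, 26.2% and 24.6%, beside 4.89%, 4.53%, 9.97% and 6.86% of B cells. Both libraries with YKL-5-124 thus lay above their own B cells and the other libraries did not. Among Ccl5 carriers at least 3 S100a6 UMIs were found in 15 of 61, 14 of 51, 8 of 40 and 26 of 62 cells, and among CD8 T cells with no Ccl5, Nkg7 or Gzmk UMI in 1 cell of each library. The set held 98.6% of the S100a6 UMIs of members without Ccl5 in the YKL-5-124 library and 98.7% in the combination. With anti-PD-1 the share was 85%. Only cells with fewer than 3 S100a6 UMIs can fall outside the set, so a high share follows largely from its definition.

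**Figure D5:**
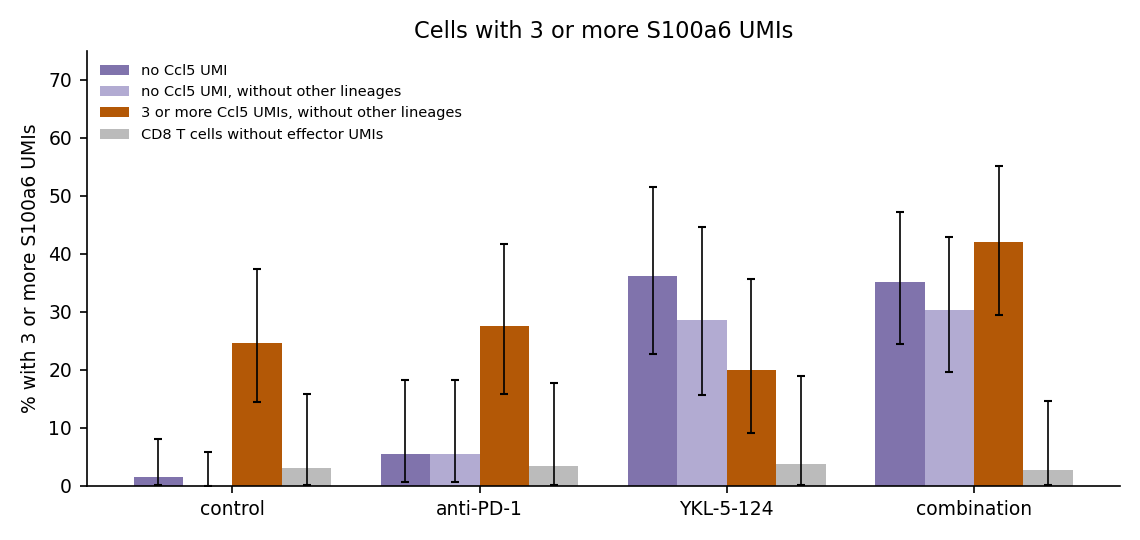
Percentage of cells with at least 3 S100a6 UMIs by library, for members without Ccl5 (all, and without other-lineage RNA), members with at least 3 Ccl5 UMIs without other-lineage RNA, and CD8 T cells without effector UMIs; error bars are exact binomial 95% intervals over cells. Without other-lineage RNA, members without Ccl5 reach 28.6% under YKL-5-124 and 30.3% in the combination, against 0 of 62 cells in the control.

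The 34 cells of this set were chosen after their values had been seen, so their profile is described without a test. They had a median of 4245.5 UMIs and 1739 genes, against 2609 UMIs and 1001 genes in the 173 other members without Ccl5 and 2926.5 UMIs and 1148 genes in 214 Ccl5 carriers. Cd8b1 was found in all 34 at 1511 CPM, against 1313 CPM in the 173 and 1324 CPM in the carriers, and Cd8a stood at 485, 594 and 521 CPM. Cd4, which the rule bars, was at 0, as were Trdc (the gamma delta T cell receptor constant gene) and Foxp3 (the regulatory T cell factor). The other genes of those lists were not: the CD4 T cell list summed to 393 CPM in the set and 169 CPM in the 173 with 3 of 4 genes found. The regulatory T cell list, which holds Ctla4, summed to 433 and 137 CPM with 4 of 5 found, and the gamma delta list to 39.9 and 18.1 CPM with 4 of 8 found in the set. Their part in the profile was not tested. None was marked as a doublet, and the monocyte and macrophage list summed to 62.7 CPM with 3 of 7 genes found. Doublets of 2 T cells were not tested.

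Beside S100a6, the set was high in S100a4 at 809 CPM (10.1 in the 173 and 164 in the carriers), Lgals1 at 5586 CPM (365 and 1504), Itgb1 at 1283 CPM (92.7 and 400) and Anxa2 at 1072 CPM (44.3 and 198). Klrg1, Cx3cr1, Zeb2 and S1pr5, receptors and a factor of terminal effectors, had no UMI in the 34 cells and 20, 14, 9 and 8 UMIs in the carriers. The carriers hold more UMIs in all, and a count of 0 in the set allows up to 17.1 CPM. Carrier levels of Zeb2 and S1pr5 lay below that limit, so no difference is shown for them. These pooled values also set libraries against each other, since 32 of the 34 cells came from libraries with YKL-5-124, and the set is deeper.

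Within single libraries, Pdcd1 was found in 5 of 12 set cells, 1 of 30 other members without Ccl5 and 3 of 40 Ccl5 carriers under YKL-5-124. After thinning to 1000 UMIs these were 1, 1 and 3 cells, so no difference was visible at matched depth in that library. In the combination Pdcd1 was found in 17 of 20, 1 of 46 and 18 of 62 cells, and after thinning in 10 of 20, 1 of 45 and 7 of 62. Lag3 was left after thinning in 3 of 12, 0 of 30 and 3 of 40 cells under YKL-5-124 and in 8 of 20, 0 of 45 and 7 of 62 in the combination. Itgb1 was left in 7 of 12, 1 of 30 and 9 of 40 cells and in 13 of 20, 3 of 45 and 16 of 62. The set was thus the highest of the 3 for Itgb1 and Lag3 in both libraries and for Pdcd1 in the combination.

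Pooled over libraries and not thinned, Lag3 and Ctla4 were found in 55.9% of the set each. The chemokine receptor gene Cxcr3 was found in 67.6% and Cxcr6 in 47.1%. Under YKL-5-124, thinning left Cxcr3 in 2 of 12 set cells, 1 of 30 other members without Ccl5 and 8 of 40 Ccl5 carriers. In the combination it was left in 5 of 20, 0 of 45 and 12 of 62. Ctla4 was left in 1, 0 and 1 such cells under YKL-5-124 and in 5, 5 and 9 in the combination. For Cxcr6 these were 2, 3 and 4, and 4, 0 and 7. For Cxcr3 the set thus lay below the carriers under YKL-5-124 and above them in the combination. In the pooled, unthinned values Mki67 was at 291 CPM in the set, from 11 of 34 cells. Mki67 was at 0 in the 173 and at 34.8 CPM in the carriers. Rrm2, a subunit of the enzyme that makes deoxynucleotides, was at 410, 14.1 and 59.4 CPM in the same order. Granule genes of the Ccl5 carriers were low, with Gzma at 17.1 CPM against 1021 and Gzmb at 79.8 against 293, and Ly6c2 was at 85.5 CPM against 350 and 853. Ccr7 stood at 513 CPM, near the carriers (452) and below the 173 (1241), while Dapl1 was at 861 CPM, above both (576 and 178). The transcription factor genes Gata3 and Rora were at 200 and 171 CPM, against 22.2 and 12.1 in the 173 and 46.4 and 47.8 in the carriers. Gata3, Rora and Dapl1 were picked for mention after their values had been seen.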

How the data were processed

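UMI counts per gene and barcode were deposited by the authors as 1 matrix per library with shared gene and barcode lists. Reads were handled with bcl2fastq and then Cell Ranger, per the submitters' processing notes, and the matrices carry software version 3.0.0, per the file headers. The notes name the build hg19, while all 31053 gene identifiers are mouse; which build the reads were aligned to is not stated there. The files list 737280 barcodes, and those with at least 500 UMIs, 300 genes and at most 10% mitochondrial UMIs were kept. The members, the gene lists and the rule were chosen with earlier results of these data known.

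Each library is 1 sample, and the labels do not say how many animals it holds; members' UMIs were summed per library and no p-value was computed between treatments. CPM scales the UMIs of the population named to 1000000 per library. Between libraries a gene with a mean of at least 50 CPM was called at 1.5-fold on log2(CPM + 20). The genes named were the 6 largest each way with at least 100 CPM in either library, 40 UMIs and 15 cells, the members of 19 lists and, between populations, the 12 largest each way with at least 50 CPM; exceptions are said to be chosen after their values were seen. Populations were compared over the 4 libraries with edgeR 4.0.16 (R 4.3.3), quasi-likelihood test, TMM scaling and library as a block. Genes passed at a Benjamini-Hochberg adjusted p of at most 0.05. These p-values set a population difference against its variation across the 4 libraries, which also differ in treatment. DESeq2 1.42.0 was an alternative. Both procedures were tested on simulated data.

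NK cells held at least 2 UMIs of Ncr1 and Klrb1c, and B cells at least 3 of Cd79a. Scrublet's automatic threshold (Scanpy 1.11.5) marked under 0.5% of cells, so the 97, 60, 138 and 131 highest scores (control, anti-PD-1, YKL-5-124, combination) were marked instead. These held 3, 2, 5 and 6 members, which were kept and left out in an alternative. Shares of cells with a UMI were compared after thinning to 1000 UMIs, which left out 0, 2, 0 and 1 members. A share of 0 is given with the upper limit that 3 counts allow. Some items of the rule for named genes are not reported here.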

Additional observations from a re-analysis of the deposited data

How the results depend on the processing

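Between treatments no paired analysis was possible, because each treatment has 1 library and the labels give no replicate numbers that treatments share beyond the single one. The comparisons of populations were paired by library, as a block. Of 289 main values recomputed, 191 were kept, 49 moved, and counts of genes passing a population test grew by over 1.5 times in 14 cases and shrank by as much in 35; of 420 list medians 364 were kept, 54 moved and 2 turned. The cause was not tested except where fewer genes, cells or libraries entered. Counts of genes past 1.5-fold depended on the pseudocount. At 5 CPM they were 160 higher and 153 lower for anti-PD-1 against control, and 82, 80, 74 and 101 lower for YKL-5-124 against control, combination against control, combination against anti-PD-1 and combination against YKL-5-124. At 50 CPM they were 41 higher and 52 lower, 124 and 18, 110 and 19, 113 and 21, and 41 and 16 in that order of comparisons. With no filter on low levels they were 456 and 565, 714 and 350, 588 and 203, 807 and 244, and 413 and 272. With size factors in place of totals, 69, 84 and 77 were lower for YKL-5-124 against control, combination against control and combination against anti-PD-1. With each member weighted equally, 66 were lower for combination against anti-PD-1.

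With at least 5 effector UMIs per member, 166, 86, 71 and 87 were lower for anti-PD-1, YKL-5-124, combination against anti-PD-1 and combination against YKL-5-124. Without members high in G2/M genes, 91, 67, 73 and 104 were lower for YKL-5-124, combination, combination against anti-PD-1 and combination against YKL-5-124. Without members with other-lineage RNA, 65 were lower for anti-PD-1 and 128 higher for combination against anti-PD-1. Among Ccl5 carriers alone the counts were 290 and 199 for anti-PD-1, 165 lower for YKL-5-124, 344 and 133 for the combination, 157 lower for combination against anti-PD-1, and 247 and 146 for combination against YKL-5-124. The share of members with inhibitory receptor UMIs in the combination over control became 2.12 when 1 more UMI was asked for.

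Values that turned against the main direction were few. Leaving out members high in G2/M genes removes cell cycle signal by construction and says nothing of its stability; YKL-5-124 against control then gave list medians of −0.16 for G1/S and −0.0084 for G2/M, Pdcd1 −0.33, Lag3 −0.50 and Mki67 −0.33, and combination against anti-PD-1 gave Top2a −0.35 and Ctla4 −0.0394. Without members with other-lineage RNA, Cd9 was 0.45 for YKL-5-124 against control and Ccl3 −0.92 for combination against anti-PD-1. Gzmb was then 0.70 and Ccl4 −0.23 for combination against YKL-5-124. Cst3 was then −0.52 against CD8 T cells with NK receptors, which were not filtered in the same way. Between Ccl5 carriers and members without Ccl5, both filtered, Cst3 was −0.27. Among Ccl5 carriers alone, YKL-5-124 against control gave Pdcd1 −1.15, Mki67 −0.52, Anxa2 −0.27 and Xcl1 1.17, and combination against control gave Cxcr3 −0.22 and Xcl1 1.24. The S100a6 log2 ratio of YKL-5-124 over control was 1.90 in all members and 0.16 among Ccl5 carriers alone, and among Ccl5 carriers without other-lineage RNA S100a6 was lower with YKL-5-124 (406 CPM) than in the control (544 CPM).

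Between populations, calls against CD8 T cells without effector UMIs were 7 higher and 13 lower by DESeq2, 127 and 16 with no filter, 7 and 7 with no block for library, 44 and 53 without marked doublets, and 9 to 39 and 10 to 35 leaving out 1 library. Against CD8 T cells with NK receptors they were 13 and 28, 178 and 99, 5 and 10, 17 and 32, and 13 to 69 and 18 to 65 leaving out 1 library (18 and 29 without the combination library), with 80 higher without members with other-lineage RNA. Against NK cells they were 418 and 356 by DESeq2 and 553 to 648 and 533 to 632 leaving out 1 library. Between Ccl5 carriers and members without Ccl5 they were 12 and 4 by DESeq2, 64 and 21 with no filter, 3 lower with no block, and 14 to 21 and 4 to 10 leaving out 1 library. Between members without Ccl5 and CD8 T cells without effector UMIs they were 3 and 2 by DESeq2, 60 higher with no filter, 0 and 2 with no block, 14 and 24 without marked doublets, 16 lower without members with other-lineage RNA, and 0 to 9 and 0 to 13 leaving out 1 library. Cells with other-lineage RNA were left out of the members only, except in the split by Ccl5, where both sides lost them. Depth limits the receptor genes most: Pdcd1 rests on 14 UMIs and Lag3 on 11 in the control members.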
